A study of Mus musculus with 7 samples.

Results

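The 51 genes described here encode the machinery that licenses replication origins and copies DNA at the fork: the origin recognition complex and its partners, the MCM2-7 helicase and its activators, the replicative polymerases, the sliding clamp and its loader, enzymes of nucleotide supply and fork protection factors. They were taken from a written list of gene symbols, and all 51 of 51 were found among the 34592 genes counted. In G1, the origin recognition complex with Cdc6 and Cdt1 loads the MCM2-7 ring onto DNA, and geminin (Gmnn) blocks Cdt1 afterwards so that no origin is licensed again in the same cycle. In S phase, the kinase Cdc7 with Dbf4 and the factors Cdc45 and GINS turn the loaded ring into a working helicase, after which polymerase alpha-primase starts each strand, and polymerases delta and epsilon extend it on the Pcna clamp. Transcription of many of these genes is known to be driven by E2F factors at the entry into S phase, and they are abundant in cycling tumor cells.

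RNA was sequenced from pieces of 7 mouse group 3 (G3) medulloblastomas (MBs), all grown from a single tumorsphere line, # 19568. The line goes back to Trp53-/-; Cdkn2c-/- cerebellar granule neuron progenitors that carry an MSCV retrovirus for Myc, so enforced Myc and both deletions were shared by every tumor. For the marker of this retrovirus in # 19568, the paper's methods name GFP and a figure legend names RFP. In the 4 WDR11OE tumors, the tumorspheres had been infected with a lentivirus for human WDR11 and copGFP under the EF1 promoter. The 3 control tumors are listed with no treatment in the sample labels, whereas the treatment protocol describes the empty lentivirus. Spheres were embedded in Matrigel and placed into the cortex of CD1-nu/nu hosts, which lack mature T cells, and tumors were collected when the mice became moribund. The infected cells were not sorted, so a WDR11OE tumor may hold uninfected cells, and normal brain of the host may be part of any piece. Control and WDR11OE libraries carry numbers from different series, so series and condition cannot be told apart.

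The total number of counted reads was 32116095 to 87141305 per tumor, and 33417175 to 41397427 in the controls. Levels are given as CPM, counts relative to the TMM-adjusted library size, and 17389 genes that passed edgeR's expression filter were tested. All 51 replication genes were among them, with 296 to 30175 counts per gene and tumor. Nothing says that tumors of a group came from separate infections, so p-values measure only the spread between these tumors. No pair of replicates was the same library sequenced again, since squared differences between their counts were at least 22.6 times the sampling variance (chi-square per degree of freedom). This does not show separate mice or separate RNA samples, and the lowest value, 22.6, was that of WDR11OE replicates 1 and 2. The mouse Wdr11 row held 58.4 to 59.3 CPM in the controls and 61.0 to 68.9 CPM in the WDR11OE tumors (log2 fold change 0.16 ± 0.062 (SE), adjusted p = 0.091), but reads of the human cDNA need not map to it, so it does not check the labels. Of 7 markers of the granule neuron lineage, Atoh1 was at 0 in all tumors, and the sum of the list was 88.3 to 98.0 CPM in controls and 79.6 to 94.6 CPM in WDR11OE tumors. Sox11 (36.8 to 63.5 CPM) and Pax6 (17.2 to 31.2 CPM) were the highest of the list. Barhl1 had at most 1 count in a tumor, and Neurod1 was at 0.02 to 2.54 CPM.

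Promoters of some replication genes hold the letters of an E2F site, and 5 of them, picked after the values were seen, are shown because they come from genes that rose (Orc1, Orc3 and Pola1) and genes that did not pass the test (Mcm5 and Mcm6). The windows were taken from RefSeq on GRCm38.p6, reach from 250 bases before to 50 bases after the annotated start, and were present for 42 of the 51 genes. Each line gives 100 bases on the strand of the gene, and capitals mark the octamers TTTCCCGC, TTTCGCGC, TTTGCCGC or TTTGGCGC on either strand. The stretches lie at chr4:108579384-108579483 (+) for Orc1, chr4:34614913-34615012 (-) for Orc3, chrX:93632209-93632308 (-) for Pola1, chr8:75109341-75109440 (+) for Mcm5 and chr1:128359731-128359830 (-) for Mcm6.
Orc1: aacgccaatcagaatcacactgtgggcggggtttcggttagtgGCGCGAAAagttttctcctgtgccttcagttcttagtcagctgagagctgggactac
Orc3: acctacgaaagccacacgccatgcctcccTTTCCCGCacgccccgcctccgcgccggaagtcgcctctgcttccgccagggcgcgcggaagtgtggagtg
Pola1: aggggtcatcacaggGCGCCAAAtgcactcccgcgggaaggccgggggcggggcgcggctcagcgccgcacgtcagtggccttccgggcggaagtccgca
Mcm5: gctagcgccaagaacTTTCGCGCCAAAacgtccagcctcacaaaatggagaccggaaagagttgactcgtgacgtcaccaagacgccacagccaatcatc
Mcm6: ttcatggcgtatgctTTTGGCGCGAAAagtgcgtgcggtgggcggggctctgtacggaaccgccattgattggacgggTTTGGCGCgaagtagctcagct

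The octamer begins 27 bases before the start in Orc1, 41 before it in Orc3 and 138 before it in Pola1. In Mcm5 and Mcm6, octamers of opposite strands overlap in the run of 12 capitals. At least 1 octamer was found in 16 of the 42 genes (38.1%), against 704 of 27025 genes in the RefSeq table (2.6%). CCAAT, the box that NF-Y reads, was found on either strand in 24 of the 42 (57.1%), against 41.1% of all genes. The E2F-type octamer was present in 7 of 22 genes that rose between the groups (31.8%) and in 9 of 20 others (45%). A match is a description of letters in the window and not a site in use.

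In the WDR11OE tumors, 26 of the 51 genes (51%) rose, 2 (3.92%) fell, and 23 did not pass the test, here edgeR's quasi-likelihood F test at an adjusted p under 0.05, with the Benjamini-Hochberg method over all genes. Over all 17389 genes, 18.1% rose and 15.8% fell. The median log2 fold change of the 51 genes was 0.34, against 0.08 over all genes tested. The changes were small: only Orc5 passed with at least a 2-fold difference, against 7.48% of all genes in either direction. No gene of the set fell by 2-fold in edgeR, DESeq2 or limma-voom, while 4 were lower at an unadjusted p under 0.05. The CPM of all tumors lay without overlap between groups in 27 genes that were higher and in 4 that were lower (Cdt1, Mcm4, Pold1 and Lig1), against 23.5% and 19.1% of all genes.

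**Figure D1:**
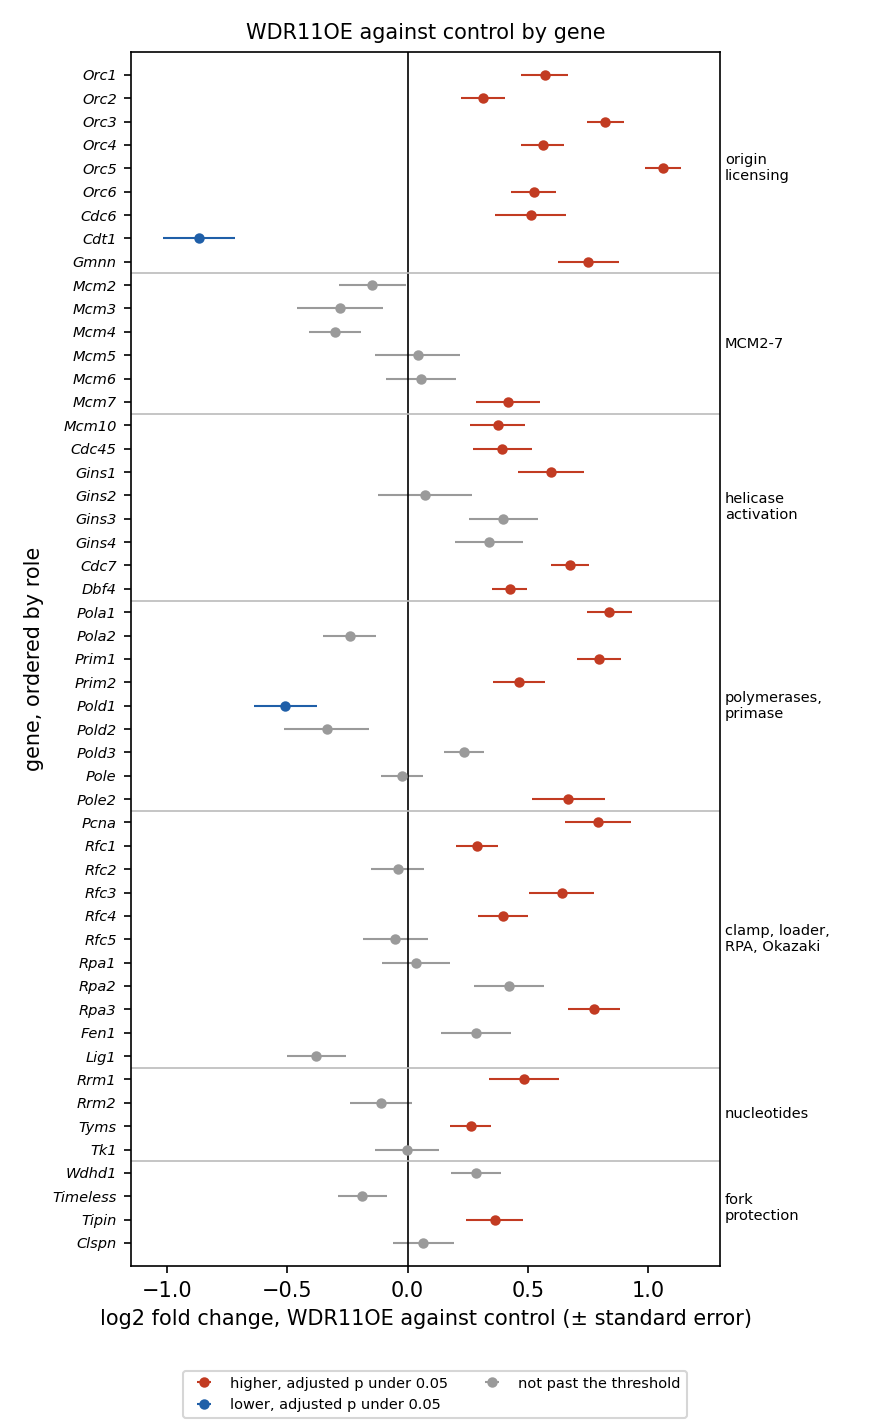
Log2 fold change of WDR11OE against control for each of the 51 genes (x axis), ordered by role (y axis), with the standard error of the fit as a bar and the colour giving the call at an adjusted p under 0.05. The 8 genes that rose in the licensing group sit between 0.31 and 1.06 with Cdt1 at -0.87, while 5 of the 6 MCM2-7 genes lie in gray between -0.30 and 0.05.

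The origin licensing genes had the highest median of the 7 role groups, 0.56 over 9 genes. All 6 subunits of the origin recognition complex, the initiator that marks origins, rose, as did Cdc6, the ATPase that completes the loader, and Gmnn, the inhibitor of licensing. Cdt1, the protein that carries MCM2-7 to the origin, fell.

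Orc5 (ENSMUSG00000029012, chr5:21992303-22056247 on NCBIM37), an ATPase subunit of the complex, was at 22.8, 23.2 and 25.0 CPM in control replicates 1 to 3, and at 51.2, 49.8, 45.6 and 51.03 CPM in WDR11OE replicates 1 to 4. Every WDR11OE tumor was above every control by a wide margin. WDR11OE against control gave a log2 fold change of 1.06 ± 0.074 (SE; adjusted p = 0.00086), a 2.09-fold higher level. Of its exon bases, 353 are shared with a pseudogene on the same strand, Gm15421, and counts in that stretch are uncertain.

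Cdt1 (ENSMUSG00000006585, chr8:125091915-125097028) was at 70.3, 72.1 and 79.6 CPM in the controls and at 42.7, 48.4, 40.5 and 30.3 CPM in the WDR11OE tumors. All 4 WDR11OE tumors were below all 3 controls, with replicate 4 lowest. This gave a log2 fold change of -0.87 ± 0.15 (SE; adjusted p = 0.0047). Gmnn (ENSMUSG00000006715, chr13:24843714-24853792) was at 16.4, 17.7 and 23.1 CPM in the controls and at 33.8, 30.9, 32.5 and 31.2 CPM in the WDR11OE tumors, again without overlap. Its log2 fold change was 0.75 ± 0.13 (SE; adjusted p = 0.0045). Cdt1, Gmnn and Pold1 were singled out after their values were seen, as were Mcm4 and Lig1.

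The level of Gmnn relative to Cdt1, a measure also chosen after the values were seen and given as a description, was 0.233, 0.245 and 0.290 in the controls and 0.790, 0.638, 0.802 and 1.03 in the WDR11OE tumors. All 4 WDR11OE tumors were above all 3 controls, with replicate 4 highest. The mean ratio was 3.18-fold higher in the WDR11OE group.

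The other 6 licensing genes also rose. Orc3, which joins Orc2 in the core of the complex, was at 57.2 ± 3.1 CPM (SD, n = 3) in controls and 101 ± 7.1 CPM (SD, n = 4) in WDR11OE tumors, with a log2 fold change of 0.82. Orc1, the subunit known to be regulated over the cell cycle, had one of 0.57, Orc4 0.56, Orc6 0.52, Cdc6 0.51 and Orc2 0.31. Orc2 and Cdc6 had the largest adjusted p of the group, 0.035 and 0.033, and passed in 7 and 11 of 19 alternative settings.

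Of the 6 MCM2-7 genes, which encode the motor of the replicative helicase, 1 rose and 5 did not pass the test, with a median log2 fold change of -0.05. At an unadjusted p under 0.05, or by DESeq2, 1 of the 6 was lower. Mcm7 (ENSMUSG00000029730, chr5:138605811-138613650) was at 198, 198 and 271 CPM in the controls and at 327, 300.3, 277 and 285 CPM in the WDR11OE tumors. The third control stood close to the lowest WDR11OE tumor, without overlap. For Mcm7, the log2 fold change was 0.42 ± 0.13 (SE; adjusted p = 0.045), and the call was lost without any 1 tumor other than control replicate 3 (adjusted p between 0.056 and 0.18). The exons of Mcm7 also hold Mir25 and Mir93 and share 321 bases with Ap4m1 on the other strand.

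Mcm4 was at 140, 149 and 184 CPM in the controls and at 135, 134, 126 and 116 CPM in the WDR11OE tumors. All WDR11OE tumors were below all controls, but the difference of -0.30 did not pass (adjusted p = 0.070). For the other 4 genes the groups overlapped: the log2 fold changes were -0.28 in Mcm3, -0.15 in Mcm2, 0.04 in Mcm5 and 0.05 in Mcm6, with standard errors of 0.14 to 0.18. The summed CPM of the 6 ORC genes divided by that of the 6 MCM2-7 genes, a ratio chosen after the values were seen, was 0.249, 0.234 and 0.191 in the controls and 0.307, 0.324, 0.332 and 0.376 in the WDR11OE tumors.

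**Figure D2:**
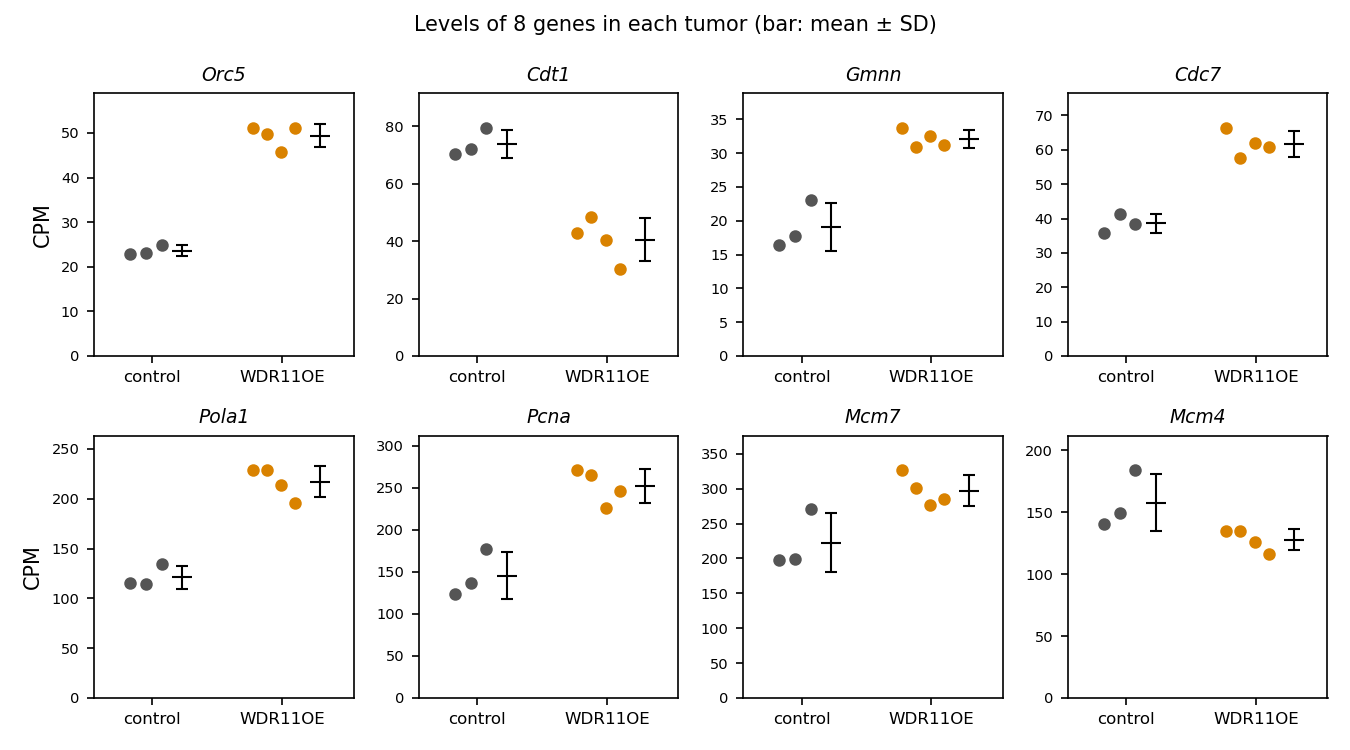
CPM (y axis, from 0) of 8 genes in the 3 control tumors (gray points) and the 4 WDR11OE tumors (orange points), with the mean and SD of each group beside them. Orc5, Gmnn, Cdc7, Pola1, Pcna and Mcm7 are higher in all 4 WDR11OE tumors and Cdt1 and Mcm4 are lower in all of them, with narrow gaps in Mcm7 (271 against 277 CPM) and Mcm4 (140 against 135 CPM).

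Among the 8 genes that activate the loaded helicase, 5 rose, and the median log2 fold change was 0.40. None fell in edgeR, and 0 were lower at an unadjusted p under 0.05, by DESeq2 or by limma-voom. Cdc7 (ENSMUSG00000029283, chr5:107393341-107413451), the kinase that phosphorylates MCM2-7 at the start of S phase, was at 35.9, 41.3 and 38.5 CPM in the controls and at 66.4, 57.5, 61.9 and 60.9 CPM in the WDR11OE tumors. The groups were far apart compared with the spread in either, with a log2 fold change of 0.68 ± 0.079 (SE; adjusted p = 0.0013). Dbf4, the regulatory subunit of the same kinase, had a log2 fold change of 0.42.

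The helicase cofactor Cdc45 (0.39, adjusted p = 0.043) and the scaffold Mcm10 (0.37, adjusted p = 0.041) also rose, each in 7 of 19 alternative settings. With the GC trend removed, neither Cdc45 (adjusted p = 0.064) nor Mcm10 (adjusted p = 0.080) passed. Of the 4 GINS subunits, which hold Cdc45 to the ring, only Gins1 passed (0.60 ± 0.14, adjusted p = 0.015), while the values were 0.40 in Gins3, 0.34 in Gins4 and 0.07 in Gins2. Gins2 shares 2758 of its 4097 exon bases with Gse1 on the other strand, and it is not known whether the counting used strand, so its reads cannot be told from those of Gse1.

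Of the 9 polymerase and primase genes, 4 rose, 1 fell and 4 did not pass. Pola1 (ENSMUSG00000006678, chrX:90550106-90877494), the catalytic subunit of polymerase alpha, was at 115, 114 and 135 CPM in the controls and at 229, 229, 214 and 196 CPM in the WDR11OE tumors. No control came near the lowest WDR11OE tumor. In the fit, Pola1 had a log2 fold change of 0.84 ± 0.093 (SE; adjusted p = 0.0012). The primase subunits Prim1 (0.80, adjusted p = 0.0012) and Prim2 (0.46, adjusted p = 0.015), which make the RNA primer, rose with it. Pole2, the second subunit of polymerase epsilon, was at 13.7 ± 2.7 CPM (SD, n = 3) in controls and 21.8 ± 1.6 CPM (SD, n = 4) in WDR11OE tumors (log2 fold change 0.67).

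The values differed between subunits of the same enzyme. Pola2, the accessory subunit of polymerase alpha, had a log2 fold change of -0.24 (adjusted p = 0.14). Pola1 relative to Pola2, again chosen after the values were seen, was 2.43, 2.10 and 2.16 in the controls and 4.68, 4.68, 4.62 and 4.80 in the WDR11OE tumors. Each group kept to a narrow band, and the mean ratio was 2.11-fold higher in the WDR11OE group. Exon GC content was 41.2% in Pola1 and 54.1% in Pola2, and the ratio was not corrected for it. With the trend of fold change on GC content removed over all genes, Pola1 had a log2 fold change of 0.48 and Pola2 one of -0.11.

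Pold1 (ENSMUSG00000038644, chr7:51788116-51804219), the catalytic subunit of polymerase delta, was at 69.5, 86.7 and 93.4 CPM in the controls and at 61.2, 63.8, 60.6 and 48.3 CPM in the WDR11OE tumors. It was lower in all 4, with control replicate 1 nearest to them. The log2 fold change was -0.51 ± 0.13 (SE; adjusted p = 0.023), and the call was lost without control replicate 2, control replicate 3 or WDR11OE replicate 1 (adjusted p up to 0.080). Its partners Pold2 (-0.34) and Pold3 (0.23) and the catalytic subunit of polymerase epsilon, Pole (-0.03), did not pass.

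In the group of clamp, clamp loader, RPA and Okazaki fragment genes, 5 of 11 rose, with a median of 0.29. None fell in edgeR, while 1 was lower at an unadjusted p under 0.05 and by DESeq2. Pcna (ENSMUSG00000027342, chr2:132074898-132079050), the ring that tethers the polymerases, was at 123, 136 and 177 CPM in the controls and at 271, 265, 226 and 246 CPM in the WDR11OE tumors. The groups did not overlap. The log2 fold change was 0.79 ± 0.14 (SE; adjusted p = 0.0047). A processed copy counted as its own row, Pcna-ps2, had a mean of 13.3 CPM (SD 2.5, n = 3) in controls and of 27.0 CPM (SD 1.8, n = 4) with WDR11, and the counting may have split reads between the copies.

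Rpa3 (ENSMUSG00000012483, chr6:8205936-8209173), the smallest subunit of the complex that coats unwound DNA, was at 15.6, 18.03 and 20.6 CPM in the controls and at 31.6, 32.4, 29.9 and 29.8 CPM in the WDR11OE tumors. It was higher in every WDR11OE tumor than in any control. Rpa3 had a log2 fold change of 0.78 ± 0.11 (SE; adjusted p = 0.0022), whereas Rpa2 (0.42, adjusted p = 0.059) and Rpa1 (0.03, adjusted p = 0.88) of the same trimer did not pass. With the trends of GC content and length removed, the value of Rpa3 turned to -0.10 (adjusted p = 0.63).

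Of the clamp loader, Rfc3 (0.64), Rfc4 (0.40) and the large subunit Rfc1 (0.29) rose, and Rfc2 (-0.04) and Rfc5 (-0.05) did not pass. With the GC trend removed, the calls of Rfc3 (0.42, adjusted p = 0.067), Rfc4 (0.21, adjusted p = 0.21) and Rfc1 (0.13, adjusted p = 0.33) were all lost. With GC and length removed, the value of Rfc4 was -0.005 (adjusted p = 0.98). Fen1, the nuclease that trims Okazaki flaps (0.28, adjusted p = 0.18), and Lig1, the ligase that seals them (-0.38, adjusted p = 0.051), did not pass either. Fen1 shares 1909 of its 2422 exon bases with Gm10143 on the other strand. Lig1 was at 82.8, 85.5 and 112 CPM in the controls and at 75.5, 73.8, 75.2 and 62.7 CPM in the WDR11OE tumors.

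In nucleotide supply, 2 of 4 genes rose. Rrm1 (ENSMUSG00000030978, chr7:109590209-109618285), the large subunit of ribonucleotide reductase, was at 155, 172 and 220 CPM in the controls and at 258, 283, 263 and 215 CPM in the WDR11OE tumors. WDR11OE replicate 4 was below control replicate 3, so the groups overlapped. For Rrm1, the log2 fold change was 0.48 ± 0.15 (SE; adjusted p = 0.038), and the call was lost without any 1 tumor other than control replicate 3 and WDR11OE replicate 4 (adjusted p between 0.083 and 0.16). Thymidylate synthase, Tyms, had a log2 fold change of 0.26 (adjusted p = 0.048) and passed in 5 of 19 alternative settings. With the GC trend removed, neither Rrm1 (0.27, adjusted p = 0.24) nor Tyms (0.12, adjusted p = 0.37) passed. The small reductase subunit Rrm2 (-0.11) and thymidine kinase, Tk1 (-0.00), did not pass in the main fit.

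Among the 4 fork protection genes, only Tipin rose. Tipin (ENSMUSG00000032397, chr9:64129414-64152599), the partner of Timeless in the complex that steadies a stalled fork, was at 45.9, 39.8 and 55.4 CPM in the controls and at 58.3, 58.4, 66.1 and 59.1 CPM in the WDR11OE tumors. The groups stood close but did not overlap. The log2 fold change was 0.36 ± 0.12 (SE; adjusted p = 0.0496), the largest adjusted p of the 26 calls. The call was lost without any 1 tumor other than control replicate 3, and the value turned to -0.02 (adjusted p = 0.93) with the GC trend removed. Timeless itself (-0.19), the adaptor Clspn (0.07) and Wdhd1, which links helicase and polymerase alpha (0.29, adjusted p = 0.073), did not pass.

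**Figure D3:**
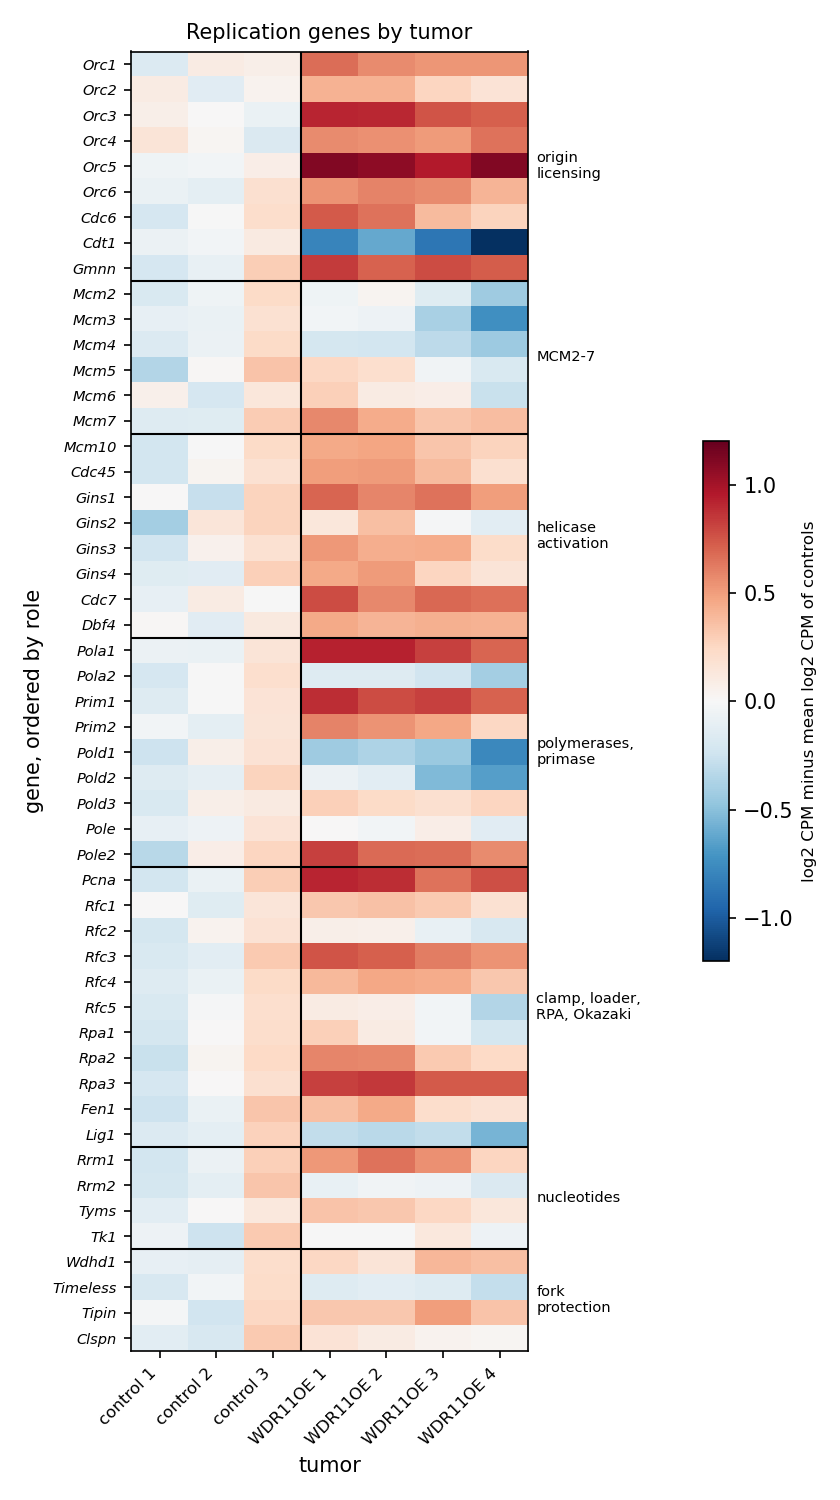
Difference in log2 CPM from the mean of the controls (colour, red for higher and blue for lower) for the 51 genes (rows, by role) in each of the 7 tumors (columns). The ORC rows and Gmnn are red in all 4 WDR11OE tumors and Cdt1 is blue in all 4, while control replicate 3 is redder than the other controls and WDR11OE replicate 4 bluer than the rest of its group.

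The genes varied together from tumor to tumor within a group. Averaged over the 51 genes, log2 CPM relative to the mean of the controls was -0.14, -0.05 and 0.20 in control replicates 1 to 3 and 0.36, 0.34, 0.25 and 0.13 in WDR11OE replicates 1 to 4. WDR11OE replicate 4 was therefore below control replicate 3 in this average. Among the controls, replicate 3 had the highest value in 46 of 51 genes and replicate 1 the lowest in 37. Among the WDR11OE tumors, replicate 1 was highest in 29 genes and replicate 4 lowest in 41. The median SD of log2 CPM within a group was 0.21 in the controls and 0.11 in the WDR11OE tumors, so the spread of the controls was the larger.

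Neuron markers moved with this order. The summed level of 9 neuron markers found in the counts, of 10 listed, was 458, 137 and 72.5 CPM in control replicates 1 to 3 and 17.1, 37.71, 208 and 689 CPM in WDR11OE replicates 1 to 4. Within each group, the tumor with more neuron marker RNA had a lower average over the 51 replication genes. The sums overlapped between the groups, and none of the 9 was at 0 in any tumor. The order was not particular to neuron markers, since the summed astrocyte markers had the same one within each group. They were at 516, 461 and 269 CPM in control replicates 1 to 3 and 133, 143, 337 and 670 CPM in WDR11OE replicates 1 to 4. In such pieces of tissue, fewer cycling cells and less of an RNA per cell cannot be told apart. Added once the data had been seen, a fit took the mean log2 CPM of the 9 neuron markers, not their sum, as a covariate. It called 28 of the 51 genes higher and 7 lower, against 22.8% and 20.2% of all genes. With neither control replicate 1 nor WDR11OE replicate 4, which had the highest neuron marker level of their groups, it was 19 higher and 5 lower, against 14% and 17.8% of all genes.

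**Figure D4:**
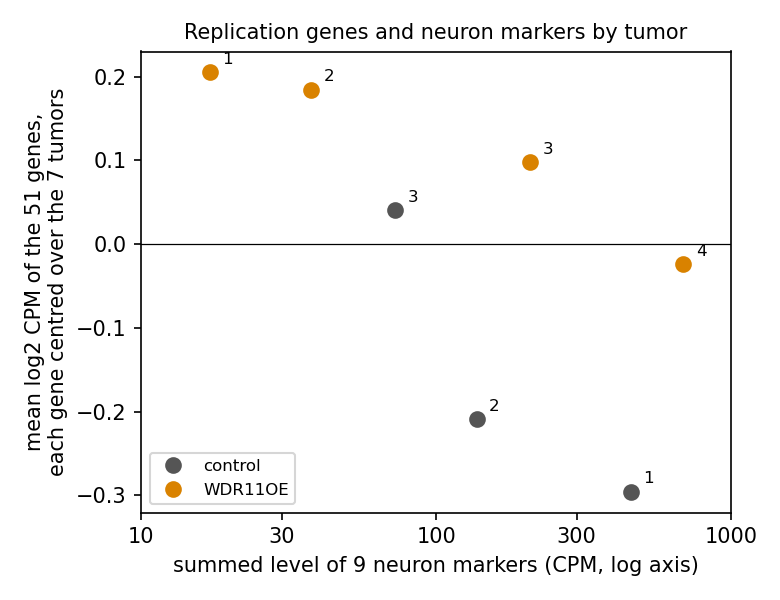
Mean log2 CPM of the 51 genes in each tumor, each gene centred over the 7 tumors (y axis), against the summed CPM of 9 neuron markers on a log axis (x axis), with points numbered by replicate. Within the 3 controls (gray) and within the 4 WDR11OE tumors (orange) the points fall from left to right, and WDR11OE replicate 4, with 689 CPM of neuron markers, lies below control replicate 3, with 72.5 CPM.

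Markers of skeletal muscle separated the groups. All 5 were higher in the WDR11OE tumors, and their sum was 31.6 to 97.1 CPM there against 1.04 to 1.75 CPM in the controls, where Mb was at 0 in all 3. The sums of astrocyte, oligodendrocyte, microglia and macrophage markers overlapped between the groups, with 1 of these 18 genes past the test. Those of endothelium were 63.6 to 71.9 CPM in the WDR11OE tumors and 75.9 to 103 CPM in the controls. Of the 4 endothelium markers, only Cdh5 passed (log2 fold change -1.02, adjusted p = 0.0024). Pecam1 (0.12), Cldn5 (-0.23) and Kdr (-0.40) did not. The part of muscle and endothelial RNA in the differences of the replication genes was not tested.

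The GC content of a gene's exons moved with its fold change. Across the 51 genes, Spearman's rho between log2 fold change and exon GC content was -0.70, and across 14919 protein-coding genes it was -0.35. Genes are not independent replicates, and all share the same libraries. The 26 replication genes of lower GC content had a median log2 fold change of 0.50, and the 25 of higher GC content had one of 0.03. Exon GC content was 35.04% to 52.7% in the genes that rose, 43.1% to 58.1% in those that did not pass, and 58.8% and 60.2% in Cdt1 and Pold1, which fell.

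With the trend of fold change on GC content removed over all genes, 12 of the 26 higher calls were kept, and the median was 0.13. In that setting 12.1% of all genes were higher and 14.5% lower. The 9 licensing genes then held 5 of the 12 higher calls, and 3 were in polymerase and primase genes, 2 in helicase activation, and 1 each in MCM2-7 and the clamp group. Orc5 was still higher, by 0.78 (adjusted p = 0.0021), which is under 2-fold. Cdt1 still fell (-0.55, adjusted p = 0.020), Pold1 no longer passed (-0.14, adjusted p = 0.40), and Mcm4 passed (-0.47, adjusted p = 0.023). The values of Orc4 (-0.04) and Dbf4 (-0.02) changed sign. The ratios of Gmnn to Cdt1 and of ORC to MCM2-7 genes were not corrected for GC content. In this setting Gmnn was at 0.78, and the medians were 0.39 over the licensing genes and 0.001 over MCM2-7.

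**Figure D5:**
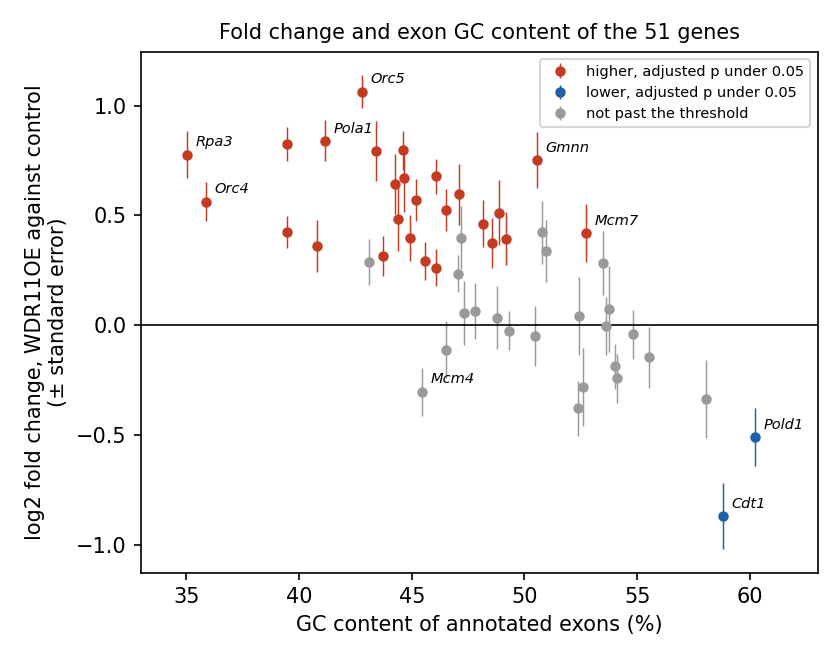
Log2 fold change of WDR11OE against control with its standard error (y axis) against the GC content of annotated exons in % (x axis) for the 51 genes, coloured by call. The points fall from Rpa3 and Orc4 at 35.04% and 35.9% GC to Cdt1 and Pold1 at 58.8% and 60.2%, with Mcm4 below the others of like GC content.

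Across 19 alternative settings, 7 of the higher calls passed in every one: Orc1, Orc3, Orc5, Gmnn, Cdc7, Pola1 and Prim1. Of the lower calls, Cdt1 did so. The 7 belong to the origin recognition complex, the control of licensing, the S phase kinase and polymerase alpha-primase. No gene of MCM2-7, the clamp group, nucleotide supply or fork protection passed in all 19. However, Pcna of the clamp group passed in 18 of the 19 and missed only with GC and length removed (0.42, adjusted p = 0.062). Orc6 also passed in 18.

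The order of the levels was described per length, as CPM per kilobase of the annotated exons of all transcripts, which is approximate. In the controls, Mcm6 was highest at 81.2 ± 9.7 (SD, n = 3), followed by Pcna at 60.7 ± 12, Mcm3 at 52.6 ± 5.9 and Mcm7 at 50.3 ± 9.5. All 6 MCM2-7 genes were among the 8 highest of the 51. At the other end were Gins3 at 4.03 ± 0.57, Orc1 at 3.79 ± 0.37 and Gins2 at 3.48 ± 0.81, and the highest level was 23.3 times the lowest. The values of the controls overlapped in 49 of the 50 pairs of neighbours in this order, so single steps of it are not resolved. In the WDR11OE tumors, Pcna came first at 105 ± 8.6 (SD, n = 4), ahead of Mcm6 at 84.3 ± 13, and Cdt1 moved from rank 11 to rank 27.

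The same comparison in other genes of the cycle gave mixed counts. Of 42 further replication genes outside the 51, 40 were in the counts, with a median of 0.13. Of these, 13 rose (32.5%) and 2 fell (5%), against 18.1% and 15.8% of all genes. The histone chaperones Nasp (0.88 ± 0.11 (SE), adjusted p = 0.0016) and Asf1a (0.73 ± 0.079 (SE), adjusted p = 0.0011) rose. With the GC trend removed, 5 of the 13 higher calls were kept and Asf1a was not among them (0.25, adjusted p = 0.13), while both lower calls were kept. In that setting 6 of the 40 were higher and 3 lower, against 12.1% and 14.5% of all genes. The maintenance DNA methyltransferase Dnmt1 (-0.65 ± 0.12 (SE), adjusted p = 0.0072) and Samhd1, which degrades deoxynucleotides (-0.57 ± 0.11 (SE), adjusted p = 0.0066), fell.

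Of 17 regulators of S phase entry, 5 fell (29.4%) and 1 rose (5.88%), against 15.8% and 18.1% of all genes, with a median of -0.14. Myc (ENSMUSG00000022346), whose row may also count reads of the retrovirus, was at 1109, 821 and 812 CPM in the controls and at 390, 431, 278 and 289 CPM in the WDR11OE tumors. All WDR11OE tumors were below all controls, with a log2 fold change of -1.40 ± 0.20 (SE; adjusted p = 0.0023). The repressor E2f7 fell (-0.60, adjusted p = 0.0060), and Ccne2, a cyclin E, rose (0.84, adjusted p = 0.0012). The other lower genes were E2f1, E2f3 and E2f8, named after their values were seen. With the GC trend removed, Ccne2 (0.31, adjusted p = 0.11) and E2f1 (-0.03, adjusted p = 0.83) did not pass. Rbl1, also named after its values were seen, passed only then (-0.46, adjusted p = 0.015). In that setting 0 of the 17 were higher and 5 lower, against 12.1% and 14.5% of all genes.

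Of 26 genes of G2 and mitosis, 10 rose (38.5%) and 5 fell (19.2%), against 18.1% and 15.8% of all genes, with a median of 0.18. The spindle checkpoint gene Mad2l1 (0.91, adjusted p = 0.0022) and the kinetochore gene Ndc80 (0.82, adjusted p = 0.0035) rose. Foxm1, a transcription factor of mitotic genes (-0.96, adjusted p = 0.0011), and Incenp, a subunit of the chromosomal passenger complex (-0.54, adjusted p = 0.0055), fell. The other lower genes were Plk1, Espl1 and Ube2c, also named after their values were seen. With the GC trend removed, 3 of the 10 higher calls were kept (Cdk1, Mad2l1 and Ndc80), and Plk1 (adjusted p = 0.065) and Ube2c (adjusted p = 0.074) of the lower ones were lost. In that setting 3 of the 26 were higher and 4 lower, against 12.1% and 14.5% of all genes. Whether any of these lists differed from the 51 genes was not tested.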

How the data were processed

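The authors aligned the reads of 7 tumors to NCBIM37 (StrongArm pipeline), and HT-seq with GENCODE gene models gave the raw counts per gene that they deposited. The submitters' processing notes also name CASAVA 1.7, STAR and BWA, and mm9. The labels name an unstranded TruSeq kit and the paper a stranded one, and the strand setting of the counting is not given in the sources used here, so for the 14 replication genes whose exons overlap a gene on the other strand reads cannot be told apart.

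Counts were filtered with filterByExpr, scaled by TMM and tested between WDR11OE and control with edgeR 4.0.16 (quasi-likelihood, two-sided) in R 4.3.3, with adjustment over 17389 genes. Coordinates and exon GC content are from GENCODE vM1 on NCBIM37 and promoters from RefSeq. The fit was tested on simulated data. The members, role groups and lists were chosen with earlier results of these data known. By rule, the gene with the smallest p and the one with the largest change in each role group, any 2-fold call, and the 2 lower and 2 higher list genes of smallest p are given in full. Alternatives were DESeq2 1.42.0, limma-voom (limma 3.58.1), other scalings and filters, a threshold of 0.01, removal of GC and length trends, summing WDR11OE replicates 1 and 2, whose titles share a number, and leaving out each tumor. Replicate numbers follow the order of the samples and name them only. Counting error covers sampling of reads alone, since reads carry no molecular identifiers.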

Additional observations from a re-analysis of the deposited data

Results flagged for a closer look

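In 2 of the 51 replication genes, 1 WDR11OE tumor lay far from the other 3 of its group by Dixon's test, with a gap that took 0.868 and 0.899 of the group's whole range. Lig1 was at 62.65 CPM in WDR11OE replicate 4, with the nearest tumor at 73.78 CPM. Tipin was at 66.12 CPM in WDR11OE replicate 3, with the nearest at 59.07 CPM. Chance flags about 1 in 20 groups, and 51 groups of 4 were examined. The controls, with 3 tumors, were not examined in this way.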

How the results depend on the processing

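The main counts were 26 replication genes higher and 2 lower. The number higher was 16 with relative log expression scaling, 16 without a filter, 12 with the GC trend removed, 10 with GC and length trends removed, 12 with WDR11OE replicates 1 and 2 summed and 12 at an adjusted p under 0.01. Leaving out 1 tumor gave 12 to 29 higher and 1 to 4 lower: 16 and 4 without control replicate 1, 15 and 1 without control replicate 2, 29 and 1 without control replicate 3, 12 and 1 without WDR11OE replicate 1, 12 and 2 without WDR11OE replicate 2, and 17 and 2 without WDR11OE replicate 3. The number lower was 4 with DESeq2, 4 with library size scaling, 1 with the replicates summed and 1 at 0.01. Chosen after seeing the data, the neuron marker covariate gave 7 lower, and the fit with neither control replicate 1 nor WDR11OE replicate 4 gave 5. No 2-fold higher gene was left with the GC trend removed (0), with GC and length removed (0), or with neither of those tumors (0), and 2-fold lower genes numbered 0 to 1 without single tumors. The median was 0.13 with the GC trend removed. Of the further replication genes, 13 higher became 8 with relative log expression scaling, 7 without a filter, 6 with GC and 7 with GC and length removed, 6 with the replicates summed, 6 at 0.01, 8 with neither of those tumors, and 6 to 14 without single tumors, and the 2 lower became 0 with GC and length removed. Over these settings, 7.92% to 22.8% of all genes were higher and 8.93% to 20.2% lower. With sign alone, 21 of the 26 higher calls kept theirs under every alternative. Signs turned in the other 5: Rpa3 (-0.10, GC and length), Rfc4 (-0.005, GC and length), Tipin (-0.019 with GC, -0.26 with GC and length), Orc4 (-0.04, GC) and Dbf4 (-0.02, GC). For changes between settings the cause was not tested, and some of the fits also held fewer tumors. No paired analysis was possible because the replicate numbers only name the tumors.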
